A study of Mus musculus with 6 samples.

Results

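The expression of 10 chemokine genes was followed in the retina of adult mice lacking the transcription factor Onecut2 (OC2-KO) and of their wildtype littermates (OC2-WT). They are Ccl2, Ccl3, Ccl4, Cxcl1, Cxcl10, Cxcl12, Cxcl13, Cxcl14, Cxcl16 and Cx3cl1, 10 of 18193 named genes on the array. All 20 probe sets that the platform annotation gives 1 of these names were used, of 45037. Total RNA of isolated retinas was hybridised to 6 Affymetrix arrays, 3 per genotype, and the comparison addresses which mature retinal transcripts change when Onecut2 is lost. The labels give the adult stage, no treatment and no restriction of the knockout to a cell type. They leave unsaid whether arrays of a genotype stand for different animals, so the p-values cover array-to-array spread only, and that spread may be technical. Values are log2 of the intensity scaled by the authors. A probe set is called near background here where its mean is 7 or less in both genotypes, the level the study set for expression, and 8 of the 20 were near background.

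Chemokines are small secreted proteins that guide migrating cells along a gradient. They are named by the spacing of conserved cysteines near the amino end (CC, CXC and CX3C) and act through receptors coupled to G proteins. Some are inducible and appear in injured or infected tissue, where they draw in monocytes, neutrophils or lymphocytes. Others are made constantly and position resident cells. In the retina, neurons make the membrane-bound ligand Cx3cl1, whose receptor Cx3cr1 is carried by microglia, while stressed Müller glia and microglia can release Ccl2.

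Of the 10 genes, 7 have a promoter in the RefSeq table used (GRCm38.p6), and the windows below run from 250 bases before the annotated start to 50 bases after it. Cxcl13 and Cxcl1 are shown because each holds a probe set with an unadjusted p under 0.05 in a fit to all 6 arrays described below. Cxcl10 is shown because it is the classical interferon-inducible member and was near background. Ccl2 also held such a probe set, but Ccl2, Ccl4 and Cxcl16 have no promoter there. Capitals mark matches, on either strand, to the kappaB motif bound by NF-kappaB, the TATA box TATAAA, the interferon response core (GAAA, any 2 bases, GAAA), the STAT motif TTCNNNGAA and the AP-1 motif TGANTCA. The windows are chr5:95956689-95956988 (+) for Cxcl13, chr5:90890995-90891294 (+) for Cxcl1 and chr5:92348840-92349139 (-) for Cxcl10.
Cxcl13: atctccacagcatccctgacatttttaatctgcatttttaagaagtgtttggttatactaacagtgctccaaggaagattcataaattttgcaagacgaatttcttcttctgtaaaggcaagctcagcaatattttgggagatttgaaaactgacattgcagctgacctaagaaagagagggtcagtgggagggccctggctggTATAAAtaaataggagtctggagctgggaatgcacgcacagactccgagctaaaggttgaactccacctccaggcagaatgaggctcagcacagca
Cxcl1: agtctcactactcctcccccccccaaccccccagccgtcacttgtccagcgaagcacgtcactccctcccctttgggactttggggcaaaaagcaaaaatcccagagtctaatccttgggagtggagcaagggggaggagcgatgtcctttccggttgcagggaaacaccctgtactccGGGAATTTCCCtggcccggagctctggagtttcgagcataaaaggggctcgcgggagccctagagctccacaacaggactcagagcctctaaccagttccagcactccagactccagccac
Cxcl10: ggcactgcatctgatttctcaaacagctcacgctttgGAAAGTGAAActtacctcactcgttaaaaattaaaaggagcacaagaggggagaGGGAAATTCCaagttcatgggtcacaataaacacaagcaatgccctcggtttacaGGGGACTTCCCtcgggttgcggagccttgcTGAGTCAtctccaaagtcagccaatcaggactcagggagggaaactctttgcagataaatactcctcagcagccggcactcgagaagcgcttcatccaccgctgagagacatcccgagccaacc

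The Cxcl13 window held a TATA box starting 46 bases before the start and no match to the other 4 motifs. The Cxcl1 window held the kappaB motif on both strands in a run of capitals that starts 71 bases before the start. In the Cxcl10 window the interferon response core began 213 bases before the start and an AP-1 match 74 bases before it. The kappaB matches began at 159 and 104 bases before the start, and only the latter is overlapped by a match shifted by 1 base. Among all 32851 windows of the same length, 8.46% held the kappaB motif, 13.6% the TATA box, 3.44% the interferon response core, 8.3% the STAT motif and 7.81% the AP-1 motif. Of the 7 member windows, the kappaB motif was in 2 (Cxcl1 and Cxcl10), the TATA box in 2 (Cxcl13 and Cx3cl1), the interferon response core in 2 (Cxcl10 and Cxcl14), the STAT motif in 1 (Cxcl14) and the AP-1 motif in 1 (Cxcl10). A match describes these letters only.

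The array median intensity ran from 98.2 to 110 in OC2-KO and from 94.9 to 110 in OC2-WT. With 3 arrays per genotype the precision is limited. The 3 Onecut2 probe sets lay at 8.52 to 9.23 in OC2-KO and at 5.28 to 7.01 in OC2-WT. Per the study they sit at the 3' end of the gene, in sequence that remains in the knockout, so they check nothing about the labels. Tissue identity was clear, since the 5 measured rod photoreceptor genes lay between 11.48 and 17.02 on every array. Arrays with the same replicate number varied together and are called pairs. RNA quality, read as log2 of the 3' Actb probe set minus the 5' one, was 1.41, 0.74 and 3.39 in OC2-KO replicates 1, 2 and 3 and 1.11, 0.71 and 2.95 in OC2-WT replicates 1, 2 and 3, so both arrays of pair 3 stood apart.

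Across the 10 genes the knockout retinas tended to read higher, but few probe sets separated the genotypes. The OC2-KO mean was above the OC2-WT mean in 17 of 20 member probe sets, where the share over all 45037 probe sets was 49.9%. The median log2 difference was 0.35 over the 20 member probe sets and -0.0013 over all probe sets. The 20 readings come from 10 genes on the same 6 arrays, so they are not independent. The members were also chosen with earlier results of these data known, so their direction is no independent evidence. All OC2-KO arrays lay above all OC2-WT arrays in 2 of 20, 1 each of Ccl2 and Cxcl13, beside 2.75% of all probe sets. OC2-KO was higher in 3 of 3 pairs in 5 of 20 (1 probe set each of Ccl2, Cxcl1, Cxcl12, Cxcl13 and Cxcl16), beside 11.8% of all probe sets. No member had all OC2-KO arrays below all OC2-WT arrays.

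**Figure D1:**
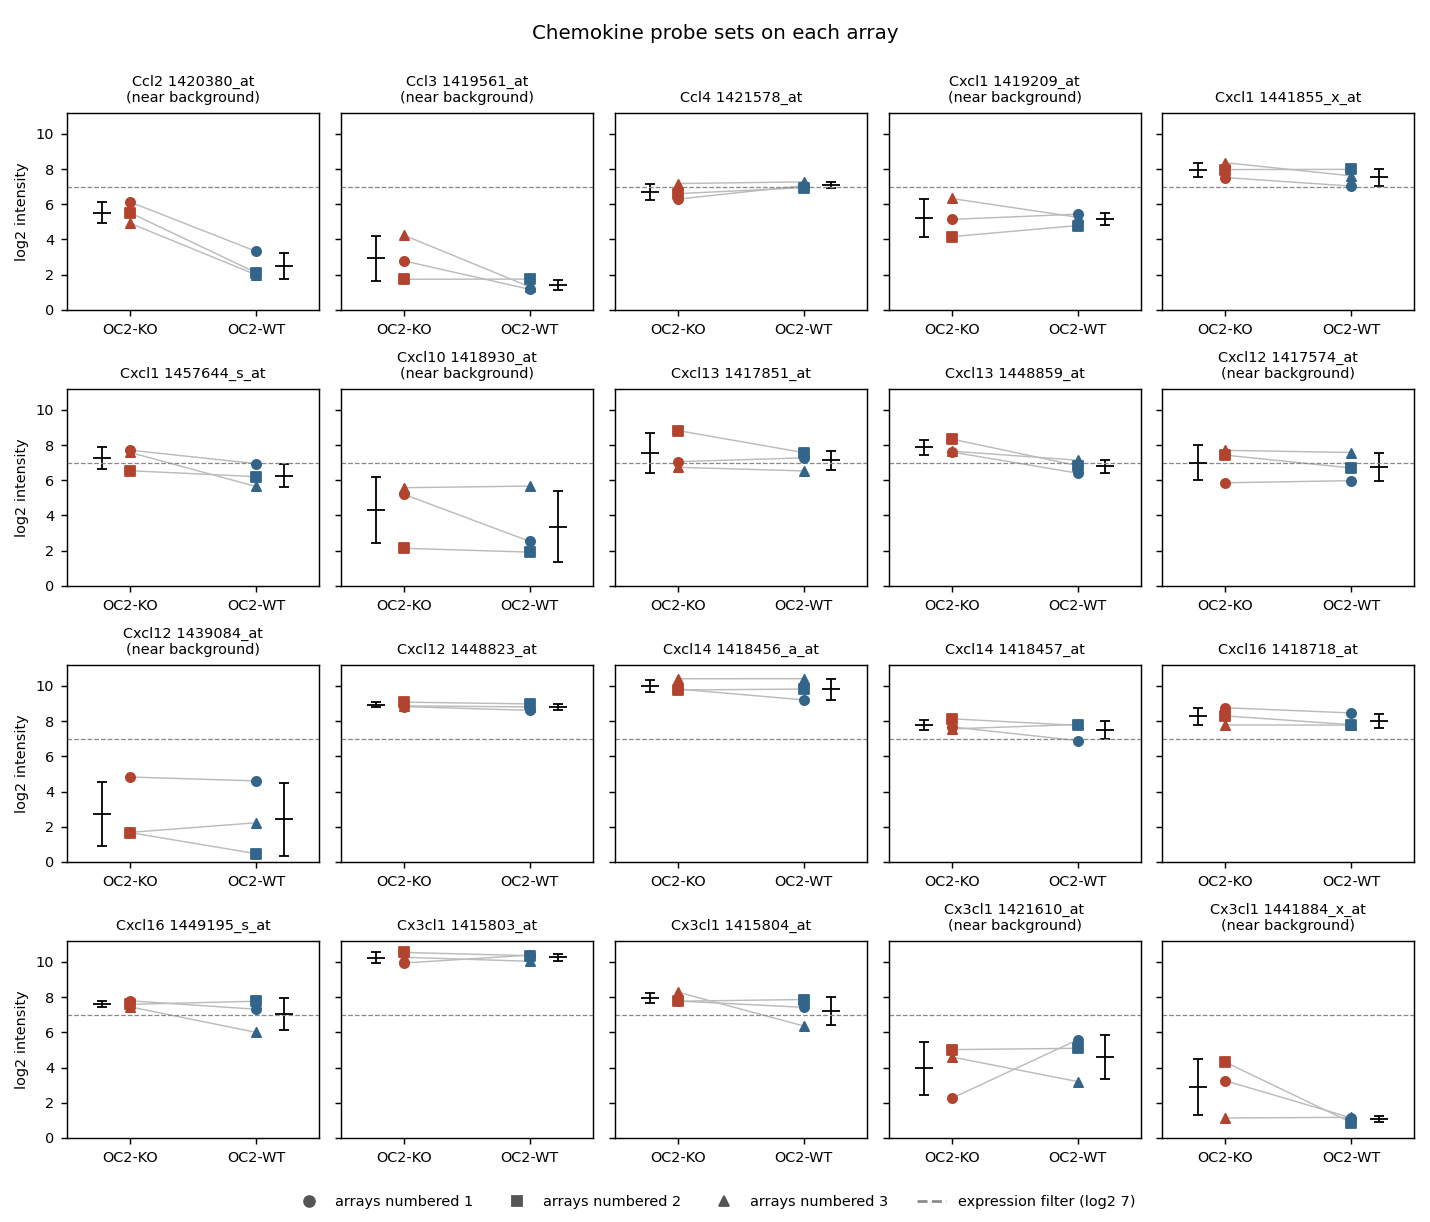
Log2 intensity (vertical axis) of the 20 chemokine probe sets on each array, by genotype (horizontal axis). Points are arrays, with 1 symbol per replicate number and grey lines joining equal numbers, black marks give the mean and SD of 3 arrays, and the dashed line is the level of 7 used to mark expression. The arrays of the 2 genotypes are fully apart for Ccl2 and for the Cxcl13 probe set 1448859_at.

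No probe set of any gene passed Benjamini-Hochberg adjustment at 0.05 with limma fitted on genotype alone, a share of 0.00%, so no member did. With the pairs as a block and an intensity trend 6 probe sets passed, none of them a member. At an unadjusted p under 0.05 the fit on genotype alone named 1 of the 12 member probe sets past the filter, beside 0.987% of the 21176 probe sets tested. That probe set, of Cxcl13, passed the filter only through its OC2-KO mean, so the filter in part set its direction. Without the filter the fit named 2 of 20 member probe sets, Ccl2 and Cxcl13, beside 2.54% of all probe sets. With the pairs as a block it named 2 of 12, Cxcl13 and Cxcl1, beside 4.19% of probe sets. Both of these passed the filter only through OC2-KO, and in the block fit without the filter the unadjusted p was 0.0274 for Cxcl13 and 0.0781 for Cxcl1 (limma, adjusted p = 0.999 for both). Of the 12 past the filter, 9 had both genotype means above 7, 2 passed through OC2-KO only and 1, Ccl4, through OC2-WT only. Ccl4 (7.09 in OC2-WT) lay just inside this limit and the Cxcl12 probe set 1417574_at (6.99 in OC2-KO) just outside.

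Ccl2, the CC chemokine that draws Ccr2-bearing monocytes into tissue, showed the widest gap of the 20. Its 1 probe set, 1420380_at, had log2 intensities of 6.13, 5.52 and 4.92 in OC2-KO replicates 1, 2 and 3, against 3.33, 2.12 and 2.00 in OC2-WT replicates 1, 2 and 3. The genotypes did not overlap, and the pairs differed by 2.80, 3.40 and 2.92. The log2 difference was 3.04 ± 0.51 (SE), or 8.24-fold, with an unadjusted p of 0.00113 and an adjusted p of 1.00 (limma without the filter). By p this probe set ranked 29 of 45037. On the linear scale its intensities were 70.0, 45.8 and 30.3 in OC2-KO, against 10.02, 4.34 and 3.99 in OC2-WT, below the median of the array on 6 of 6 arrays. The size of the fold is therefore uncertain, and with values below 6 set to 6 the difference was 0.043.

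Ccl3 and Ccl4, the macrophage inflammatory proteins that act on receptors of monocytes and T cells, gave no common direction. Ccl3 on 1419561_at was near background, at 2.79, 1.74 and 4.24 in OC2-KO replicates 1, 2 and 3 and at 1.17, 1.75 and 1.31 in OC2-WT replicates 1, 2 and 3. OC2-KO replicate 2 lay among the OC2-WT arrays. The log2 difference was 1.52 ± 0.66 (SE, limma without the filter, unadjusted p = 0.0635, adjusted p = 1.00). Ccl4 on 1421578_at stood at 6.29, 6.60 and 7.17 in OC2-KO and at 7.06, 6.94 and 7.27 in OC2-WT. It was the only member probe set lower in OC2-KO in 3 of 3 pairs, by a log2 difference of -0.40 ± 0.28 (SE, limma, unadjusted p = 0.194, adjusted p = 1.00). OC2-KO replicate 3 lay within the OC2-WT values. Leaving out 1 OC2-KO array gave between -0.20 without replicate 1 (limma, unadjusted p = 0.502, adjusted p = 1.00) and -0.64 without replicate 3 (limma, unadjusted p = 0.0466, adjusted p = 1.00).

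Cxcl13, which attracts B cells through the receptor Cxcr5, was the member with the smallest p past the filter. The probe set 1448859_at read 7.61, 8.34 and 7.65 in OC2-KO replicates 1, 2 and 3, against 6.40, 6.83 and 7.14 in OC2-WT replicates 1, 2 and 3. All OC2-KO values were above all OC2-WT values, and pairs 1, 2 and 3 differed by 1.20, 1.51 and 0.52. The genotype means were 7.87 ± 0.41 in OC2-KO and 6.79 ± 0.37 in OC2-WT (SD, n = 3 each). The log2 difference was 1.08 ± 0.30 (SE), or 2.11-fold, with an unadjusted p of 0.00884 and an adjusted p of 1.00 (limma). The study lists Cxcl13 as higher on these same arrays, so its direction is no independent evidence.

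The other Cxcl13 probe set, 1417851_at, did not separate the genotypes. It read 7.06, 8.82 and 6.74 in OC2-KO, against 7.27, 7.57 and 6.53 in OC2-WT, a log2 difference of 0.42 ± 0.57 (SE, limma, unadjusted p = 0.488, adjusted p = 1.00). OC2-KO replicate 2 was the highest array on both probe sets, and without it this probe set differed by -0.23. The genes whose values followed 1448859_at most closely over the 6 arrays were A2m (Pearson r = 0.986), a protease inhibitor, Ildr2 (r = 0.975) and Ifitm3 (r = 0.965), an interferon-induced membrane protein. These are the highest of all probe sets past the filter with 1 name, over only 6 arrays, and are given as a description.

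Cxcl1, a neutrophil attractant that acts through Cxcr2, was measured by 3 probe sets that differed among themselves. On 1457644_s_at it read 7.71, 6.54 and 7.58 in OC2-KO replicates 1, 2 and 3, against 6.95, 6.21 and 5.65 in OC2-WT replicates 1, 2 and 3. The genotypes overlapped, because OC2-KO replicate 2 lay below OC2-WT replicate 1, although each pair was higher in OC2-KO. The log2 difference was 1.01 ± 0.44 (SE, limma, unadjusted p = 0.0528, adjusted p = 1.00), and with the pairs as a block the unadjusted p was 0.0226 past the filter and 0.0781 without it (limma, adjusted p = 0.999 for both). Pair 3 differed most, by 1.93, and without both of its arrays the difference was 0.55 (limma, unadjusted p = 0.315, adjusted p = 1.00). This probe set passed the filter only through OC2-KO, and its suffix marks probes that may read transcripts of more than 1 gene.

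On 1441855_x_at Cxcl1 read 7.51, 7.97 and 8.36 in OC2-KO, against 7.03, 7.98 and 7.61 in OC2-WT, a log2 difference of 0.41 ± 0.33 (SE). On 1419209_at, near background, it read 5.14, 4.16 and 6.33 in OC2-KO, against 5.44, 4.79 and 5.26 in OC2-WT, a log2 difference of 0.045. The genotypes overlapped on both, and the suffix of 1441855_x_at marks probes that may cross-hybridise. Cxcl10, the interferon-inducible ligand of Cxcr3 on activated T cells, had 1 probe set, 1418930_at, near background. It read 5.20, 2.14 and 5.58 in OC2-KO, against 2.53, 1.92 and 5.67 in OC2-WT. Both arrays of pair 3 were high and both of pair 2 low, so the log2 difference of 0.93 ± 1.34 (SE) came from pair 1, which differed by 2.67.

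**Figure D2:**
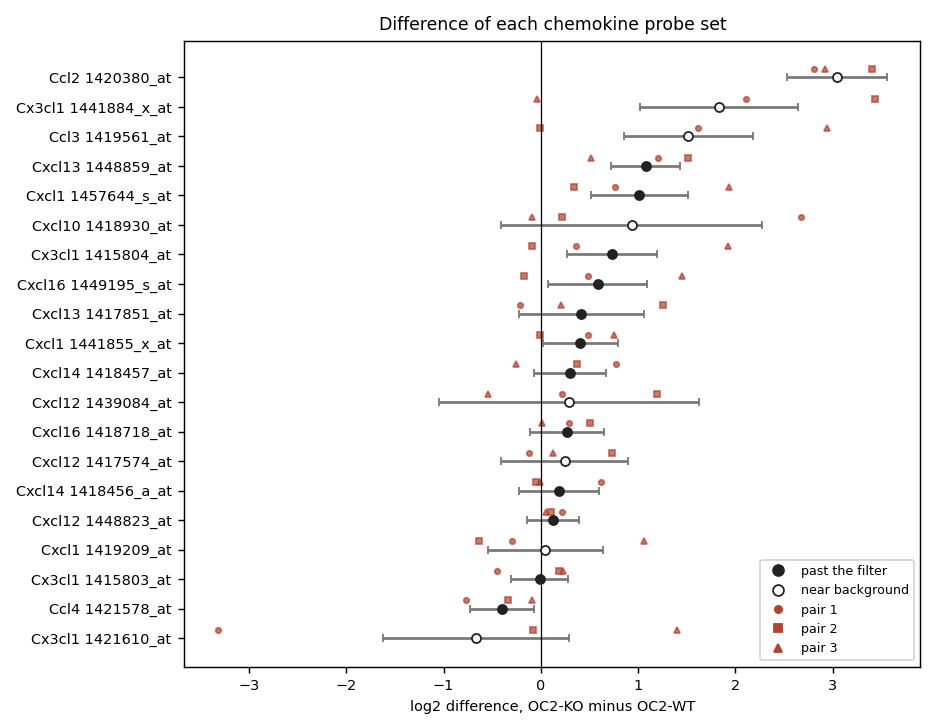
Log2 difference of OC2-KO minus OC2-WT (horizontal axis) for each of the 20 chemokine probe sets (vertical axis), with bars of 1 SE from limma fitted without the filter. Filled circles passed the expression filter, open circles were near background, and small red symbols give the 3 pairs. Ccl2 lies at 3.04, Cxcl13 (1448859_at) at 1.08 and 3 probe sets lie below 0.

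Cxcl12, Cxcl14 and Cxcl16 are made in healthy tissue, and none of their probe sets separated the genotypes. Cxcl12, which holds progenitor and immune cells in place through Cxcr4, read 8.82, 9.07 and 8.86 in OC2-KO on 1448823_at, against 8.60, 8.97 and 8.80 in OC2-WT. The values lay between 8.60 and 9.07 on all arrays, and the log2 difference was 0.12 ± 0.21 (SE, limma, unadjusted p = 0.572, adjusted p = 1.00). Its other probe sets were near background and differed by 0.24 on 1417574_at and by 0.29 on 1439084_at. On 1417574_at the values were 5.86, 7.42 and 7.70 in OC2-KO, against 5.98, 6.70 and 7.58 in OC2-WT, so the spread within each genotype was wider than the gap between them.

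Cxcl14, an epithelial and neuronal chemokine whose receptor is not settled, read 9.82, 9.76 and 10.40 in OC2-KO on 1418456_a_at, against 9.20, 9.82 and 10.41 in OC2-WT. Both arrays of pair 3 were the highest, and the log2 difference was 0.19 ± 0.35 (SE). On 1418457_at the difference was 0.30 ± 0.32 (SE), with values of 7.67, 8.13 and 7.55 in OC2-KO and of 6.89, 7.75 and 7.80 in OC2-WT. Cxcl16, a membrane-bound ligand of Cxcr6 that also takes up oxidised lipoprotein, differed by 0.27 ± 0.33 (SE) on 1418718_at and by 0.58 ± 0.44 (SE) on 1449195_s_at. On 1418718_at it read 8.75, 8.29 and 7.78 in OC2-KO, against 8.46, 7.79 and 7.77 in OC2-WT, higher in 3 of 3 pairs. On 1449195_s_at it read 7.79, 7.59 and 7.45 in OC2-KO, against 7.31, 7.76 and 6.0 in OC2-WT, where OC2-WT replicate 3 stood below the other arrays. Without that array the difference on 1449195_s_at was 0.070, and without OC2-KO replicate 1 the difference on 1418718_at was 0.029. The smallest unadjusted p among these 4 probe sets was 0.229 (limma, adjusted p = 1.00).

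Cx3cl1, the neuronal ligand that keeps microglia in check through Cx3cr1, had 4 probe sets that disagreed in direction. On 1415803_at it read 9.93, 10.53 and 10.26 in OC2-KO, against 10.38, 10.35 and 10.03 in OC2-WT. The genotypes overlapped fully, with a log2 difference of -0.013 ± 0.24 (SE, limma, unadjusted p = 0.957, adjusted p = 1.00). On 1415804_at it read 7.77, 7.77 and 8.28 in OC2-KO, against 7.42, 7.86 and 6.36 in OC2-WT, a log2 difference of 0.73 ± 0.40 (SE, limma, unadjusted p = 0.112, adjusted p = 1.00). OC2-WT replicate 3 was the low array here, and pair 3 alone differed by 1.92. The probe sets near background differed by -0.67 (1421610_at) and 1.83 (1441884_x_at). On 1441884_x_at the values were 3.25, 4.30 and 1.14 in OC2-KO, against 1.14, 0.87 and 1.17 in OC2-WT, so OC2-KO replicate 3 lay with the OC2-WT arrays. The genes closest to 1415803_at over the 6 arrays were Stau1 (Pearson r = 0.997), Tsc22d2 (r = 0.989) and Tcaf1 (r = 0.988), again as a description.

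Among the 29 other chemokine ligands listed, 25 were measured by 33 probe sets, of which 6 passed the filter, and their median log2 difference was -0.024 over all 33. At an unadjusted p under 0.05, 2 of the 6 were higher in OC2-KO and 0 lower, beside 0.987% of all probe sets past the filter. Without the filter 2 of 33 were higher (Ccl9 and Ccl12) and 1 lower (Ccl28), beside 2.54%. Ccl9, a myeloid chemokine found in rodents, read 9.46, 8.99 and 9.20 on 1417936_at in OC2-KO replicates 1, 2 and 3, against 8.68, 8.17 and 7.62 in OC2-WT replicates 1, 2 and 3. The genotypes did not overlap, with a log2 difference of 1.06 ± 0.31 (SE), or 2.08-fold (limma, unadjusted p = 0.0111, adjusted p = 1.00). The study lists Ccl9 as higher on these arrays too. Its other probe set, 1448898_at, overlapped between the genotypes and differed by -0.28 ± 1.02 (SE). Ccl28, a mucosal chemokine, read 7.79, 7.55 and 7.25 in OC2-KO on 1455577_at, against 6.29, 7.25 and 6.67 in OC2-WT, a log2 difference of 0.80 ± 0.30 (SE, limma, unadjusted p = 0.0334, adjusted p = 1.00). Without both arrays numbered 3, 0 ligand probe sets of this list had such a p. This Ccl28 probe set passed the filter only through OC2-KO, and without the filter its unadjusted p was 0.0688. Both other Ccl28 probe sets were near background and ran the opposite way, by -1.39 on 1450217_at and by -1.02 on 1450218_at (limma without the filter, unadjusted p = 0.125 and 0.0447, adjusted p = 1.00 for both). On 1450218_at the values were 3.57, 3.34 and 3.65 in OC2-KO, against 4.45, 3.94 and 5.24 in OC2-WT.

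Ccl12, which in mice shares the receptor Ccr2 with Ccl2, was also near background with the genotypes apart. It read 6.44, 5.22 and 5.44 in OC2-KO, against 3.35, 4.28 and 1.24 in OC2-WT, a log2 difference of 2.75 ± 0.84 (SE, limma without the filter, unadjusted p = 0.0178, adjusted p = 1.00). In all, OC2-KO lay wholly above OC2-WT in 3 of the 33 other ligand probe sets and wholly below in 1, beside 2.75% and 2.18% of all probe sets. Ccl27a (-0.14) and Ccl25 (-0.12) complete the 4 genes past the filter, as log2 differences of their brightest probe sets, and the other Ccl25 probe set, 1458277_at, differed by 0.28.

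The receptors of these ligands were mostly near background, and 0 of 5 probe sets past the filter had an unadjusted p under 0.05, a count too small to set against the 0.987% of all probe sets. Of 18 measured receptors, Cx3cr1 alone passed, at 7.06, 7.78 and 7.70 in OC2-KO, against 7.13, 7.67 and 6.93 in OC2-WT, a log2 difference of 0.27 (limma, unadjusted p = 0.402, adjusted p = 1.00). The atypical receptors, which take up chemokines without G protein signalling, differed by 0.38 (Ackr3, which binds Cxcl12), 0.38 (Ackr4) and 0.0010 (Ackr1). Without the filter 2 of 28 receptor probe sets and 0 of 8 atypical receptor probe sets had an unadjusted p under 0.05, beside 2.54% of all probe sets. These were Cxcr2, higher in OC2-KO, and Ccr1, lower, both near background (limma, adjusted p = 1.00 for both). With an intensity trend the unadjusted p was 0.157 for Cxcr2 and 0.0314 for Ccr1 (limma without the filter). Cxcr2, the receptor of Cxcl1, read 3.89, 3.72 and 4.85 in OC2-KO, against 3.49, 1.99 and 2.71 in OC2-WT. Ccr1, a receptor of Ccl3, read -0.38, 0.080 and -0.38 in OC2-KO on 1419610_at, against 2.71, 0.34 and 3.33 in OC2-WT, while its probe set 1419609_at differed by -0.43. The 4 probe sets of Ccr2 and the single one of Cxcr5, the receptors of Ccl2 and Cxcl13, were all near background and overlapped between the genotypes.

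**Figure D3:**
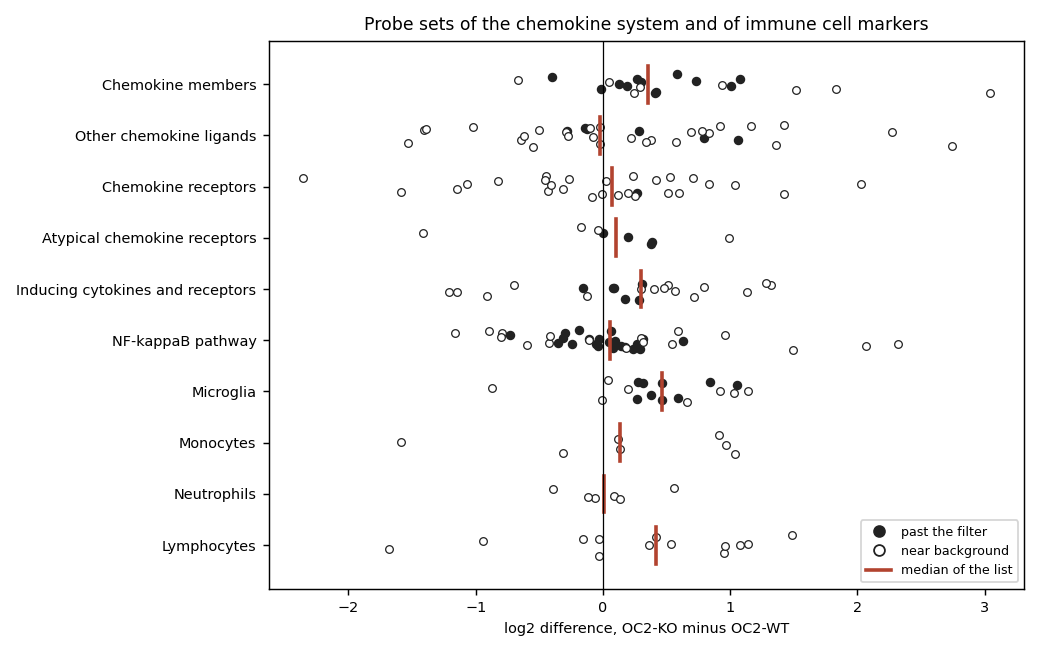
Log2 difference of OC2-KO minus OC2-WT (horizontal axis) for the probe sets of each gene list (vertical axis), with 1 point per probe set, filled where it passed the filter and open where it was near background. Red bars give the median of a list, which is 0.35 for the 10 chemokines, -0.024 for the other ligands and 0.46 for microglia markers.

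Several genes that act upstream of the inducible chemokines were near background, and the others are given with their differences. In the NF-kappaB pathway, which drives many inducible chemokines, 0 of 21 probe sets past the filter had an unadjusted p under 0.05, near the 0.987% of all probe sets, and the median log2 difference over all 38 was 0.056. Its inhibitor gene Nfkbia differed by 0.24 on its brightest probe set and the adaptor gene Myd88 by 0.27. Nfkb2 differed by 0.63, with wide overlap, and the kinase gene Ikbkb by -0.30. Of the inducing cytokines and their receptors 0 of 6 probe sets had such a p, among them Ifnar2 (0.30), Ifnar1 (0.28), Tnfrsf1a (0.17) and Ifngr1 (0.083), as log2 differences. Over all 21 probe sets of this list 15 were higher in OC2-KO, beside 49.9% of all probe sets. Their median log2 difference was 0.30, and 0.13 for the 6 past the filter. OC2-KO lay wholly above OC2-WT in 2 of the 21 and wholly below in 1, beside 2.75% and 2.18% of all probe sets. Tnf, Il1a, Il1b, Il6, Ifng and Ifnb1 were near background in both genotypes. Without the filter 1 of the 21 was higher at an unadjusted p under 0.05 and 1 lower, beside 2.54% of all probe sets. In that fit Il6ra was higher by 1.13 on 1452416_at (-0.70 on 1422270_a_at) and Ifng differed by -0.91 (limma, unadjusted p = 0.0111 and 0.0349, adjusted p = 1.00 for both). With an intensity trend the unadjusted p was 0.109 and 0.326 (limma without the filter). The sheddases Adam10 (0.0066) and Adam17 (0.074), which free Cx3cl1 and Cxcl16 from the membrane, differed little on their brightest probe sets, with no adjusted call.

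Markers of cells that make or follow chemokines differed unevenly beside these results. In whole retina, more cells of a type and more RNA per cell cannot be told apart. Of 17 microglia probe sets, 15 were higher in OC2-KO, beside 49.9% of all probe sets, with a median log2 difference of 0.46. Past the filter 1 of 9 had an unadjusted p under 0.05, beside 0.987% of all probe sets, for the adaptor gene Tyrobp (1.05, limma, unadjusted p = 0.00945, adjusted p = 1.00). The intensities of the 11 measured microglia genes summed to between 3587 and 4866 in OC2-KO, against between 2707 and 3342 in OC2-WT. These sums did not overlap, but bright genes weigh most in them, and 4 of the 11 (Aif1, C1qc, P2ry12 and Trem2) were near background. Only 1 of the 17 probe sets, that of Tyrobp, had all OC2-KO arrays above all OC2-WT arrays, beside 2.75% of all probe sets. The 2 lower probe sets, Trem2 1421792_s_at (-0.87) and C1qb 1434366_x_at (-0.0088), were near background, as was P2ry12 (0.040). The other Trem2 probe set differed by 1.03. The part of microglia genes in the chemokine results was not tested. Tmem119 (0.84), Ctss (0.46) and C1qa (0.59) overlapped between the genotypes but were higher in 3 of 3 pairs, as were 9 of the 17 microglia probe sets beside 11.8% of all. With the pairs as a block their unadjusted p was 0.0254, 0.0386 and 0.0230, in that order (limma, adjusted p = 0.999 for each), against 0.0681, 0.116 and 0.138 without it (limma, adjusted p = 1.00 for each). The block fit named 4.19% of all probe sets past the filter. Tmem119 passed the filter only through OC2-KO, so the filter in part set its direction. Without the filter and the block its unadjusted p was 0.113, and 0.138 with an intensity trend (limma). All measured genes of monocytes (4), neutrophils (6) and lymphocytes (7) were near background in both genotypes.

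Summed monocyte intensities lay between 216 and 305 in OC2-KO, against between 108 and 234 in OC2-WT. Neutrophil sums were 203 to 301 in OC2-KO and 168 to 325 in OC2-WT, and lymphocyte sums 155 to 323 in OC2-KO and 145 to 219 in OC2-WT. Of 13 endothelial and mural cell probe sets 12 were higher in OC2-KO, with a median log2 difference of 0.34, beside 49.9% higher over all probe sets. Higher in 3 of 3 pairs were 5 of them, beside 11.8% of all. The 13 come from 8 genes on the same arrays, so they are not independent. None had the genotypes fully apart, 0 had an unadjusted p under 0.05 with or without the filter (limma, no block), and the median of the 5 past the filter was 0.12. Cldn5, a tight junction gene of vessels, differed by 0.47 (limma with the block, unadjusted p = 0.0243, adjusted p = 0.999; without it, unadjusted p = 0.232, adjusted p = 1.00), Rgs5 by 0.34, Kdr by 0.11 and Pdgfrb by 0.12. Their summed intensities were 2294 to 4075 in OC2-KO and 1767 to 3340 in OC2-WT. Müller glia genes summed to 21926 to 38800 in OC2-KO and to 25945 to 33539 in OC2-WT, with 10 of 16 probe sets higher and a median of 0.051. A dim probe set of the glutamate transporter gene Slc1a3, 1439072_at, was higher by 2.20 with no overlap (limma without the filter, unadjusted p = 0.000537, adjusted p = 1.00), while the brightest one differed by 0.14. With an intensity trend the unadjusted p of 1439072_at was 0.0125 (limma without the filter). It was the 1 of 16 Müller glia probe sets wholly higher in OC2-KO, beside 2.75% of all probe sets. Markers of neighbouring eye tissue varied more. Lens genes summed to between 30240 and 47288 in OC2-KO, against between 4980 and 55539 in OC2-WT, and pigment epithelium genes to between 12807 and 64215 in OC2-KO, against between 22225 and 79457 in OC2-WT. Of 7 lens probe sets 5 were higher in OC2-KO, with a median of 0.91 and 0 at an unadjusted p under 0.05 (limma). Cryaa on 1452486_a_at read 9.06 in OC2-WT replicate 3, against 13.59 and 12.78 in OC2-WT replicates 1 and 2. That array was also the lowest on Cx3cl1 1415804_at, Cxcl16 1449195_s_at and Cxcl1 1457644_s_at. Of 10 pigment epithelium probe sets 3 were higher in OC2-KO, beside 49.9% of all probe sets. The 6 past the filter were lower, with a median of -0.57. They come from 3 genes on the same arrays, so they are not independent. Without the block 0 of the 6 had an unadjusted p under 0.05 (limma). Among them were Rgr (-0.70, limma with the block, unadjusted p = 0.0211, adjusted p = 0.999) and Ttr on 1451580_a_at (-0.59, limma with the block, unadjusted p = 0.0128, adjusted p = 0.999). The block fit named 4.19% of all probe sets past the filter. The sums of these lists overlapped, and their part in the chemokine values was not tested.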

How the data were processed

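Retinas of adult OC2-KO mice and OC2-WT littermates were profiled on 6 Affymetrix Mouse Genome arrays, and groups came from the sample titles. The authors corrected background and normalized with MAS5 (version not given in the sources used here). Deposited values are linear intensity, and each array has a 2% trimmed mean of 500, so a shift common to all genes would not appear. Neither scanner files nor detection calls were used.

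Of 45101 probe sets, 64 controls were left out. The platform annotation gave 1 gene symbol to 34945 probe sets, several to 932 and none to 9160, and 34741 matched GRCm38.p6 by gene number with 0 symbols changed. No member shared a probe set with another symbol. Log2 values were modelled in limma 3.58.1 (lmFit, eBayes; R 4.3.3), OC2-KO against OC2-WT, two-sided, with Benjamini-Hochberg adjustment. Following the study's methods, 21176 probe sets with a mean above 7 in either genotype were kept. The fit was tested on simulated data with independent arrays, unlike the arrays here. An added log2 difference of 1 passed adjustment in 1 of 50 simulated probe sets, and a difference of 2 in 24 of 50.

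Every probe set of the 10 members is given. Of the other chemokine system lists, a gene is named when its brightest probe set is among the 4 with the smallest p of its list or when any of its probe sets has an unadjusted p under 0.05, and receptors set beside a member and cell type markers were named after their values were seen. The members and lists were chosen with earlier results of these data known. Likeness was taken for the member with the smallest p past the filter and for the brightest member. After the genotype means were subtracted, arrays correlated at 0.576, 0.590 and 0.585 within replicate numbers 1, 2 and 3 and at -0.429 to -0.135 between them, and the numbers were therefore treated as pairs. Whether a number stands for a litter is not stated in the labels. Alternatives covered filters, normalization, the variance model, array weights, the replicate block, a floor, the methods' t-test and leaving out arrays.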

Additional observations from a re-analysis of the deposited data

How the results depend on the processing

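The median log2 difference over the 20 member probe sets, 0.35, was 0.16 with a floor at 6, 0.29 with array weights and 0.33 to 0.49 when 1 array was left out. The count of member probe sets at an unadjusted p under 0.05, 1, was 2 with no filter, with array weights, with the replicate block and with the block and an intensity trend, 0 with a filter at 8, and 1 to 2 with 1 array left out. It reached 2 without OC2-KO replicate 2, OC2-KO replicate 3, OC2-WT replicate 1 or OC2-WT replicate 2. Over all probe sets the count of 209 was 1144 with no filter, 127 with a filter at 8, 436 with array weights, 887 with the replicate block, 779 with the block and a trend, and 209 to 560 with 1 array left out, the highest without OC2-KO replicate 2. After adjustment the count of 0 was 6 with the block and a trend, none of them a member. For other ligands the count of 2 was 3 with no filter, 1 with a filter at 8, an intensity trend, a robust trend, array weights, the block with a trend or the methods' t-test, 0 with unequal variances or without both arrays numbered 3, and 1 to 2 with 1 array left out. It was 1 without OC2-KO replicate 1 or 2 and without OC2-WT replicate 1 or 3. For receptors the count of 0 was 2 with no filter and 0 to 1 with 1 array left out, the 1 arising without OC2-KO replicate 1. The causes of these shifts were not tested, and the filters also changed the number of probe sets in the fit.

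Member probe sets changed sign in 15 of 354 comparisons, 8 of them near background. With 1 array left out, Cx3cl1 1421610_at ran from -1.38 to 0.19, Cxcl1 1419209_at from -0.51 to 0.57, Cxcl12 1417574_at from -0.14 to 0.81 and Cxcl12 1439084_at from -0.76 to 1.38. Past the filter, Cx3cl1 1415803_at was 0.0087 with quantile normalization and -0.16 to 0.14 with 1 array left out, Cxcl13 1417851_at -0.23 to 0.82, and Cxcl14 1418456_a_at -0.12 to 0.49. Cxcl13 1448859_at kept an unadjusted p under 0.05 wherever it was tested, from 0.00369 to 0.0335, and was not tested with a filter at 8. Its adjusted p ran from 0.998 to 1.00. For Ccl2, fits without the filter gave an unadjusted p of 0.00113, 0.000456 with the block and 0.00719 with an intensity trend, the last 2 chosen after seeing the data, and a floor at 6 left a difference of 0.043, since 5 of 6 values lay below it. The spread of dim probe sets limits Ccl2, Ccl3 and Cxcl10.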
